A study of Rattus norvegicus with 11 samples.

Results

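A set of 10 genes of arterial identity and Notch signalling was read in retroperitoneal white fat: the ligands Dll4, Jag1 and Jag2, the receptors Notch1 and Notch4, the target gene Hey1, the paired vessel genes Efnb2 and Ephb4, and the connexin genes Gja4 and Gja5. They were chosen by symbol, with earlier results of these data known, and all 10 had a single row among the 25275 rows of the count table. The fat came from 11 female Wistar rats, aged 10 weeks when a western diet began, and ovaries were removed after 6 weeks of it. Both groups then got degarelix, which blocks the receptor for gonadotropin-releasing hormone and so suppresses pituitary gonadotropins, together with an osmotic pump. The pump delivered vehicle in 6 rats (degarelix only) or follicle-stimulating hormone (FSH) at 6 µg per kg per day in 5 rats (the FSH group, which also had degarelix). Feeding was restricted for 12 days and unrestricted for 7, and the rats were fasted for 4 h before the fat was taken, at an age of 19 weeks. The comparison asks what FSH changes in rats without ovaries whose own gonadotropins are suppressed.

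Notch receptors are activated by ligands of the Delta-like and Jagged families on a neighbouring cell, after which the cleaved receptor joins the DNA-binding protein RBPJ in the nucleus and switches on genes such as Hey1. In blood vessels, Dll4 and Notch1 with Notch4 restrain sprouting and favour arterial fate. Arterial endothelium carries the membrane ligand ephrin-B2 (Efnb2) and the connexins 37 (Gja4) and 40 (Gja5), whereas venous endothelium carries its receptor EphB4 (Ephb4). Jag1 is also made by smooth muscle, and none of these genes is limited to endothelium in whole fat.

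Each rat gave 1 library of 13163021 to 23694602 counts, with means of 19950000 without FSH and 16370000 with FSH (p = 0.0649, two-sided exact permutation test). Expression is given as CPM, the count relative to a library total scaled by TMM, a factor that aligns most genes between libraries. The white adipocyte markers were present in every library (7 of 7 detected, summed 21540 to 27840 CPM without FSH and 20140 to 27320 CPM with FSH), as were 11 pan-endothelial markers, while 3 of 6 kidney tubule markers stood at 0 throughout. FSH replicate 3 stood apart on the first principal component, at 44.2 against 12.7 or less elsewhere. Changes are therefore also given without it. Its part in the results was not tested.

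With FSH, Hey1 rose 1.37-fold and Ephb4 rose 1.32-fold, and these were the only members past an adjusted p of 0.05 in edgeR's quasi-likelihood test over all 12846 genes tested. All 10 members lay higher with FSH, by log2 changes from 0.10 for Jag1 to 0.45 for Hey1, with a median of 0.36 against 0.01 for all genes tested. Over all tested genes, 51.6% lay above 0. The 2 calls compare with 2.27% of all tested genes called, 1.21% higher and 1.07% lower (155 and 137 genes; 182 and 88 with unscaled library totals). At an unadjusted p under 0.05, 5 members were higher and 0 lower, against 22.6% of all genes, 11.8% higher and 10.8% lower. The 5 were Hey1, Ephb4, Notch4, Jag2 and Notch1, and Dll4, Jag1, Efnb2, Gja4 and Gja5 did not pass. In bulk tissue, more cells of a type and more RNA per cell cannot be told apart.

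**Figure D1:**
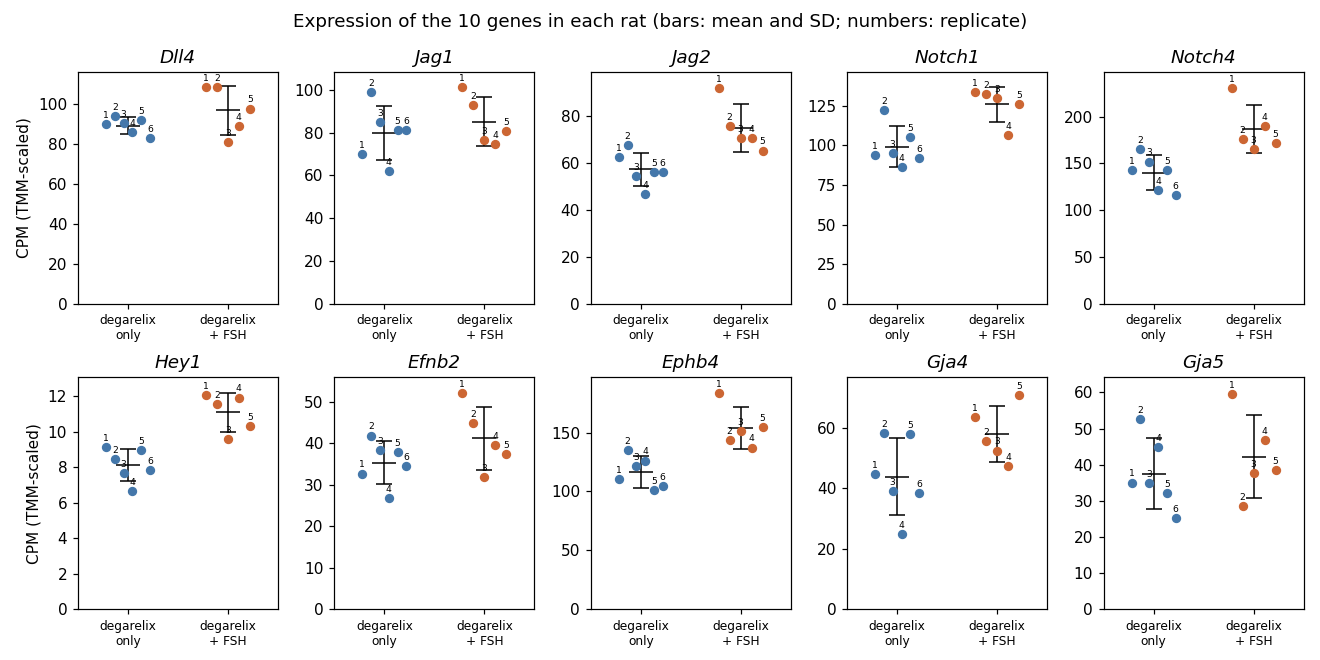
CPM (vertical axes, from 0) of each of the 10 genes in the 6 degarelix only rats (blue) and the 5 degarelix plus FSH rats (orange), with the mean and SD as black bars and replicate numbers beside the points. The groups do not overlap for Hey1 and Ephb4, and they overlap for the other 8 genes.

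Hey1 (ENSRNOG00000011593), a transcriptional repressor that Notch switches on in endothelium, held 6.67 to 9.16 CPM in the degarelix only rats, with a median of 8.14. The FSH rats held 12.1, 11.6, 9.57, 11.9 and 10.3 CPM in replicates 1 to 5. All 5 FSH values lay above all 6 degarelix only values, and the lowest, replicate 3, was the library that stood apart. The group means were 8.13 ± 0.93 CPM (SD, n = 6) and 11.1 ± 1.10 CPM (SD, n = 5), a log2 change of 0.45 ± 0.10 (SE; edgeR adjusted p = 0.044). Without FSH replicate 3 the log2 change was 0.50 (edgeR adjusted p = 0.0535). The call of Hey1 stood only without degarelix only replicate 4 and ended without any of the other 10 libraries (edgeR adjusted p up to 0.111), while the log2 change stayed between 0.40 and 0.50. Hey1 had the fewest reads of the set, 127 to 213 per library.

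Ephb4 (ENSRNOG00000045952), the receptor of ephrin-B2 and a marker of veins, held 101 to 135 CPM in the degarelix only rats, with a median of 116. The FSH rats held 184, 144, 152, 137 and 155 CPM in replicates 1 to 5. The groups did not overlap, although FSH replicate 4 at 137 CPM lay close to degarelix only replicate 2 at 135 CPM. The means were 117 ± 13.4 CPM (SD, n = 6) and 154 ± 17.8 CPM (SD, n = 5), a log2 change of 0.40 ± 0.09 (SE; edgeR adjusted p = 0.0466). Hey1 and Ephb4 were the 2 of 10 members whose groups did not overlap, against 4.34% of all tested genes, 2.54% higher and 1.8% lower with FSH. The call of Ephb4 stood when degarelix only replicate 2, degarelix only replicate 4 or FSH replicate 4 was omitted and ended without any of the other 8 libraries (edgeR adjusted p up to 0.110). Without FSH replicate 1, the highest library, its log2 change was 0.33, and without FSH replicate 3 it was 0.41 (edgeR adjusted p = 0.0782).

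Efnb2 (ENSRNOG00000014648), the arterial ligand of EphB4, did not pass the test. It held 26.8 to 41.8 CPM with a median of 36.1 in the degarelix only rats, and 52.0, 44.8, 31.9, 39.5 and 37.4 CPM in FSH replicates 1 to 5. Only FSH replicates 1 and 2 lay above the degarelix only range. Its log2 change was 0.22 ± 0.13 (SE; edgeR adjusted p = 0.342), with a 95% interval of 0.954 to 1.42 for the fold. Without FSH replicate 1, the highest library, it was 0.12 (edgeR adjusted p = 0.631). Among its relatives outside the set, the ephrin ligand Efnb1 rose from 106 ± 10.7 to 134 ± 7.90 CPM (edgeR adjusted p = 0.0428), the 1 gene called among 5 tested.

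The receptors Notch1 and Notch4 had larger means with FSH but missed the threshold. Notch4 (ENSRNOG00000000442), a receptor made mainly by endothelium, held 116 to 166 CPM in the degarelix only rats (median 143). The FSH rats held 230, 176, 166, 190 and 172 CPM in replicates 1 to 5. The groups touched at FSH replicate 3 and degarelix only replicate 2, both near 166 CPM, and the other 4 FSH rats lay above the degarelix only range. The log2 change was 0.42 ± 0.11 (SE; edgeR adjusted p = 0.0632). It was 0.33 without FSH replicate 1 and 0.46 without FSH replicate 3 (edgeR adjusted p = 0.135 and 0.075).

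Notch1 (ENSRNOG00000019322), the receptor shared by most tissues, held 86.3 to 122 CPM in the degarelix only rats (median 94.6). The FSH rats held 134, 133, 130, 107 and 126 CPM in replicates 1 to 5. FSH replicate 4 lay inside the degarelix only range and the other 4 lay above it. The log2 change was 0.34 ± 0.09 (SE; edgeR adjusted p = 0.0698), and Notch1 passed without FSH replicate 4 or without degarelix only replicate 2 (edgeR adjusted p from 0.0372). With DESeq2 as the test, Notch1, Notch4 and Jag2 passed as well (adjusted p = 0.0153, 0.0107 and 0.0183), in a fit that called 1103 genes.

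The 3 ligands differed in size of change. Jag2 (ENSRNOG00000013927), a Jagged ligand of endothelium and other cells, held 46.9 to 67.5 CPM in the degarelix only rats (median 56.2). The FSH rats held 91.8, 75.7, 70.4, 70.5 and 65.3 CPM in replicates 1 to 5. FSH replicates 1 to 4 lay above the degarelix only range, and replicate 5 lay just inside it. The log2 change was 0.38 ± 0.10 (SE; edgeR adjusted p = 0.0692), and 0.30 without FSH replicate 1.

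Dll4 (ENSRNOG00000014011), the ligand of arterial and sprouting endothelium, was the least variable member without FSH. It held 82.9 to 93.9 CPM there (median 90.3), a coefficient of variation of 4.53%. With FSH it held 109, 109, 80.8, 88.8 and 97.7 CPM in replicates 1 to 5, a coefficient of variation of 12.7%. FSH replicates 1, 2 and 5 lay above the degarelix only range, replicate 3 lay below it and replicate 4 lay inside it. The log2 change was 0.12 ± 0.08 (SE; edgeR adjusted p = 0.388), 0.18 without FSH replicate 3 (edgeR adjusted p = 0.189), and 0.075 without either FSH replicate 1 or FSH replicate 2 (edgeR adjusted p = 0.648 and 0.632).

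Jag1 (ENSRNOG00000007443), the ligand that smooth muscle also makes, held 62.2 to 98.9 CPM without FSH (median 81.2) and 101, 92.7, 76.4, 74.8 and 80.8 CPM in FSH replicates 1 to 5. Only FSH replicate 1 lay above the degarelix only range. Its log2 change was 0.10 ± 0.12 (SE; edgeR adjusted p = 0.659). It was 0.026 without FSH replicate 1, 0.064 without FSH replicate 2, 0.060 without degarelix only replicate 1, 0.034 without degarelix only replicate 4 and 0.17 without degarelix only replicate 2. The 95% interval of its fold ran from 0.895 to 1.28.

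The connexins were the most variable members in the degarelix only rats. Gja4 (ENSRNOG00000014357), a gap junction protein of arterial endothelium that is also found in mural cells, held 24.8 to 58.2 CPM without FSH (median 41.9) and 63.7, 55.7, 52.5, 47.4 and 70.8 CPM in FSH replicates 1 to 5. Only FSH replicates 1 and 5 lay above the degarelix only range. The log2 change of Gja4 was 0.40 ± 0.20 (SE; edgeR adjusted p = 0.247), as large as that of Ephb4 with a standard error more than that of any member but Gja5. Gja5 (ENSRNOG00000017484), the connexin of arterial endothelium, held 25.2 to 52.8 CPM without FSH (median 34.99) and 59.5, 28.6, 37.8, 46.9 and 38.6 CPM in FSH replicates 1 to 5. Only FSH replicate 1 lay above the degarelix only range, and the log2 change of 0.17 ± 0.21 (SE; edgeR adjusted p = 0.655) was 0.02 without that rat. It was 0.28 without FSH replicate 2, 0.29 without degarelix only replicate 2 and 0.08 without degarelix only replicate 6. Coefficients of variation in the degarelix only rats were 29.2% for Gja4 and 26.1% for Gja5, against 4.53% to 15.8% for the other 8 members.

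**Figure D2:**
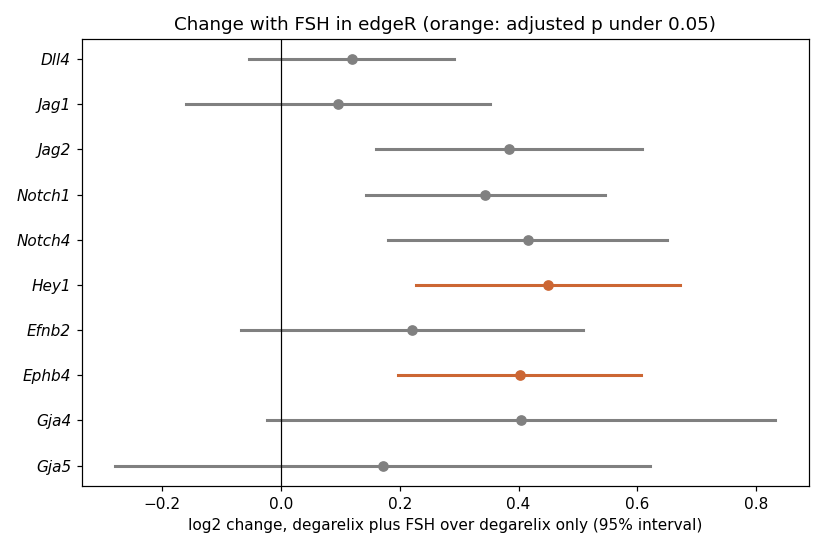
Log2 change of each gene with FSH (point) and its 95% interval (line), from edgeR's quasi-likelihood fit over all genes. Hey1 and Ephb4 are drawn in orange as past an adjusted p of 0.05, and the intervals of Dll4, Jag1, Efnb2, Gja4 and Gja5 include 0.

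Promoter windows (250 bases before to 50 after a start site, RefSeq, build GRCr8) were given for 8 of the 10 members and were read because the members lay higher together. Dll4 and the called member Hey1 had no window, so nothing is said of them here. Jag2 had more than 1 window, and members are counted by gene, whereas the shares of all promoters are by window. The letters TGGGAA, the core bound by RBPJ, were searched on either strand. They occurred in 1 of the 8 members, Notch4, and in 25.7% of all 33469 promoter windows of this length. Ephb4, the called member with a window, is shown beside Notch4, which holds the letters as the reverse complement TTCCCA, in capitals, at positions -246 and -93 from the start. The Ephb4 window holds neither form and so has no capitals. Ephb4 lies at chr12:24988339-24988638 and Notch4 at chr20:4189023-4189322, both on the minus strand and both written 5′ to 3′ of the gene.
Ephb4: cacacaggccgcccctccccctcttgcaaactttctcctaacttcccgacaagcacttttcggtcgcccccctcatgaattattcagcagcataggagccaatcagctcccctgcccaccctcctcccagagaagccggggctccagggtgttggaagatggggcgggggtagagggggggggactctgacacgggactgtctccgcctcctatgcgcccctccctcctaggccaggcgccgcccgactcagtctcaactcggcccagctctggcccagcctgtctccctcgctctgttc
Notch4: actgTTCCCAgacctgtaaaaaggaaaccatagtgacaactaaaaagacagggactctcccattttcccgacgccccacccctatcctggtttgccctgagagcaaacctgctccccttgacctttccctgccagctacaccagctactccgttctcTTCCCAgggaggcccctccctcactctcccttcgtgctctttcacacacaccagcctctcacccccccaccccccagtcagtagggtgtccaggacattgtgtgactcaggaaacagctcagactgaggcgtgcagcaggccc
The letters ATTGT, the core bound by SOX factors, occurred in 3 of the 8 members (Gja4, Jag1 and Notch4) and in 33.7% of all windows, again on either strand. The ETS letters CCGGAA occurred in Gja4 alone (15% of all windows) and the E-box CACGTG in 0 of the 8 (6.42% of all windows). GC content was 64.3% in the Ephb4 window and 57.3% in the Notch4 window.

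Within each group the members tended to be high or low in the same rats. Degarelix only replicate 2 was the highest of its group for 9 of 10 members, and FSH replicate 1 was the highest of its group for 8. Degarelix only replicate 4 was the lowest of its group for 6 members, and FSH replicates 3 and 4 were each the lowest for 4. Without FSH replicate 3, the log2 change was 0.13 for Jag1, 0.40 for Jag2, 0.33 for Notch1, 0.30 for Efnb2, 0.44 for Gja4 and 0.21 for Gja5, none of them called by edgeR. Against the degarelix only mean of each gene, the median member stood at 1.48 times in FSH replicate 1 and at 1.15 to 1.26 times in the other 4 FSH rats. Degarelix only replicate 2 stood at 1.18 times, within the range of those 4.

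Correlations were computed over the 11 rats on log2 CPM centred within each group, for 45 pairs of members. The centred Pearson r was above 0 in 44 of 45 pairs, with a median of 0.547. The share over all gene pairs was not computed, so this count is not read as a trait of these members. Efnb2 and Jag1 were closest, with r = 0.91 (permutation within groups, p adjusted over 55 relations = 0.0132) and Spearman's rho = 0.909 (adjusted permutation p = 0.0506), and r = 0.864 without the 2 rats farthest from the median of Jag1. This was the 1 pair whose r passed after adjustment. Hey1 and Ephb4, the 2 called members, had the lowest r, at -0.21 (rho = -0.355, adjusted permutation p = 0.643 and 0.454, and r = -0.10 without 2 rats). Without the 2 farthest rats of each pair, Jag2 and Ephb4 were lowest instead, at -0.60. Also below 0 then were Jag2 with Gja5 (-0.55), Ephb4 with Gja4 (-0.52), Notch1 with Ephb4 (-0.09) and Notch1 with Gja5 (-0.07). All pairs share libraries and their scaling.

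**Figure D3:**
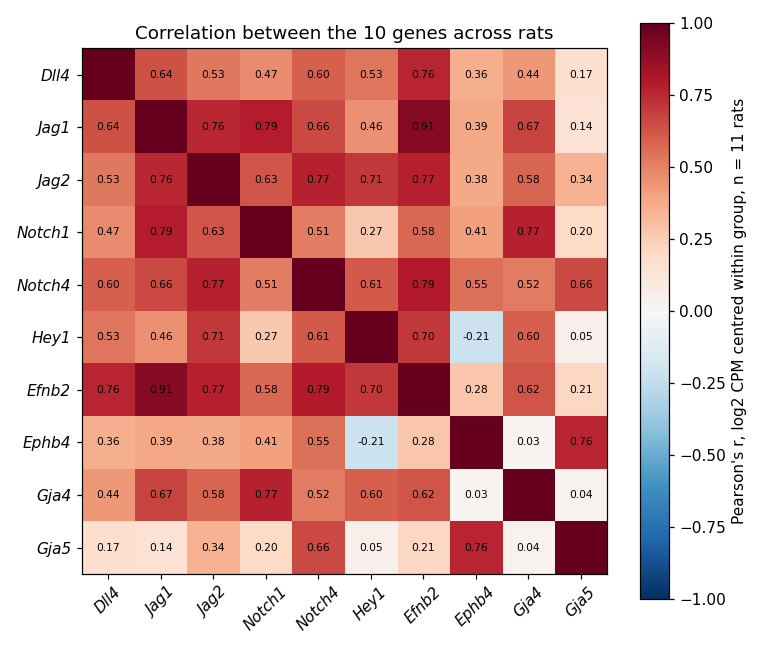
Pearson's r (colour scale from -1 to 1, value in each cell) between the log2 CPM of each pair of genes over 11 rats, centred within the 2 groups. Off the diagonal, the cell of Jag1 and Efnb2 is the darkest at 0.91, and that of Hey1 and Ephb4 is the only negative cell.

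Pan-endothelial markers were also higher with FSH. All 11 of 11 had a log2 change above 0 (median 0.31), and 2 were called, the TGF-beta co-receptor Eng (0.42 ± 0.08, edgeR adjusted p = 0.0328) and the angiopoietin receptor Tek (0.44 ± 0.10, edgeR adjusted p = 0.0431). Their summed level was 2000 to 2651 CPM without FSH and 2360 to 3507 CPM with FSH. FSH replicate 1 was highest of its group, as for 8 of 10 members. In the degarelix only group, replicate 3 was highest at 2651 CPM. Replicate 2, the highest of that group for 9 of 10 members, stood at 2367 CPM. The means were 2277 ± 218 CPM (SD, n = 6) and 2874 ± 429 CPM (SD, n = 5), a ratio of 1.26 (two-sided exact permutation p = 0.0152, and 0.121 adjusted over 16 marker lists). All 16 lists were chosen with earlier results of these data known. Tests of sums other than the pan-endothelial one were added after values were seen, so their p values are a description only. The 6 capillary markers summed to 2165 to 2629 CPM without FSH and 3110 to 3315 CPM with FSH (exact permutation p = 0.00216, the smallest possible, and 0.0346 adjusted). Aqp1 (means of 723 and 1020 CPM) and Cd36 (826 and 1030 CPM) were the largest of the 6, and neither was called by edgeR. The capillary genes Gpihbp1 and Cd300lg and the smooth muscle gene Smtn were called higher, with log2 changes of 0.63 ± 0.08, 0.86 ± 0.11 and 0.68 ± 0.08 (edgeR adjusted p = 0.00524, 0.00509 and 0.00509). The 7 smooth muscle markers summed to 547 to 745 CPM without FSH and 648 to 970 CPM with FSH (exact permutation p = 0.0411, and 0.219 adjusted), with all 7 above 0.

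The part of these markers in the members' changes was not tested beyond the values that follow. Divided by the summed pan-endothelial level of the same rat, the members no longer lay on 1 side. A total of 6 had a higher mean log2 ratio with FSH and 4 a lower one, and the differences ran from -0.23 for Jag1 to 0.12 for Hey1. The difference was 0.08 for Ephb4 (exact permutation p = 0.303) and 0.12 for Hey1 (exact permutation p = 0.387). It was 0.09 for Notch4, 0.06 for Jag2 and 0.02 for Notch1, each with an exact permutation p of 0.407 or more. Dll4 had a log2 ratio of -4.67 ± 0.10 without FSH (SD, n = 6) and -4.89 ± 0.15 with FSH (SD, n = 5). That difference of -0.22 was the only one with an exact permutation p under 0.05 (p = 0.0281, not adjusted for the 10 members), and its p rose to 0.0556 with 1 of 5 degarelix only rats (1, 2, 4, 5 or 6) left out in turn.

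With the summed pan-endothelial level as a covariate in edgeR, the log2 change was 0.43 for Hey1 (adjusted p = 0.322) and 0.18 for Ephb4 (adjusted p = 0.508). It was below 0 for Dll4, Jag1, Efnb2 and Gja5. That fit called 0 of 12846 genes, with 1568 at an unadjusted p under 0.05. The covariate itself differed between the groups, so the fit cannot fully separate it from FSH. The standard error was 0.149 for Hey1 and 0.105 for Ephb4 with the covariate, against 0.102 and 0.094 without it. Over the 11 rats, centred within group, the summed markers had their highest Pearson r with Ephb4 (r = 0.707, rho = 0.627, permutation p = 0.0216 and 0.0537, and 0.104 for r adjusted over 55 relations). Without FSH replicates 1 and 4, that r was 0.469, below the 0.688 of Notch4 and the 0.531 of Dll4, and by rho Dll4 (0.791), Jag1 (0.7) and Gja4 (0.655) came before Ephb4. The order was thus not fixed, and no centred relation with these markers passed after adjustment. Hey1 had the lowest r and rho over the 11 rats (r = 0.09, rho = 0.091, permutation p = 0.799 for either, r adjusted 0.845). Without FSH replicates 1 and 4, the r of Hey1 was 0.098, above the 0.038 of Jag2.

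**Figure D4:**
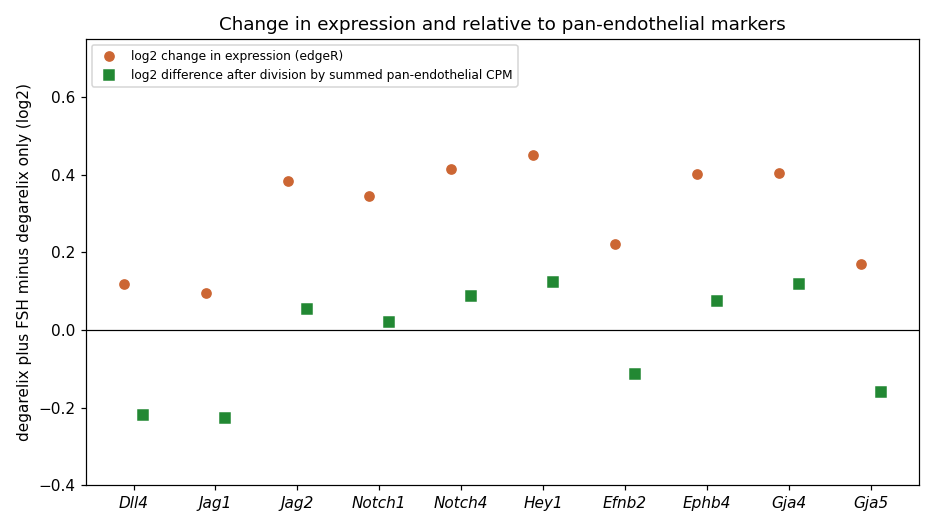
For each gene, the log2 change in expression with FSH (orange circles) and the difference in its mean log2 ratio to the summed pan-endothelial markers (green squares). All circles lie above 0, whereas the squares lie between -0.23 and 0.12 with 6 above and 4 below 0.

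The rest of the Notch pathway lay on both sides of 0. Of 30 tested genes for ligand processing, receptor cleavage, glycosylation and nuclear partners, 0 were called by edgeR (7 at an unadjusted p under 0.05, 3 higher and 4 lower). Of the 30, 15 lay above and 15 below 0, with a median of -0.01. Rbpj had 2 rows, and Maml3 and Aph1b had none, so these genes are not among the 30. Lfng, a glycosyltransferase that tunes the ligand choice of Notch, had the smallest p, with a log2 change of -0.51 ± 0.14 (edgeR adjusted p = 0.0749). Dtx3, of the Deltex family of ubiquitin ligases, had 0.24 ± 0.07 (edgeR adjusted p = 0.0782). Of 8 tested Notch targets outside the set, 0 were called (0 at an unadjusted p under 0.05), with a median of 0.04. Myc, a growth regulator, had the smallest p, with a log2 change of 0.48 ± 0.22 (edgeR adjusted p = 0.225). Hes1 had a log2 change of 0.00 ± 0.09, Hey2 0.02 ± 0.29, Heyl 0.06 ± 0.15 and Nrarp 0.10 ± 0.15, beside 0.45 for Hey1. The receptor Notch3 of mural cells had 0.18 ± 0.12 (edgeR adjusted p = 0.399), Notch2 had -0.29 ± 0.17 and the ligand Dll1 had 0.65 ± 0.24 (edgeR adjusted p = 0.149).

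Other arterial genes had a median log2 change close to that of the set. This was not particular to them, since the median was 0.31 for pan-endothelial and 0.56 for capillary markers. Of 21 tested arterial genes, 3 were called, all higher (10 at an unadjusted p under 0.05, all higher), 17 lay above 0 and the median was 0.34. The 3 were the endothelial transcription factors Sox17 (61.4 to 94.6 CPM on average, log2 change 0.62 ± 0.08) and Sox18 (73.0 to 109 CPM, 0.58 ± 0.09) and Fbln5, an elastic fibre protein of vessel walls (81.6 to 104 CPM, 0.35 ± 0.06), with edgeR adjusted p of 0.00757, 0.0115 and 0.0263. Cxcr4 (-0.38 ± 0.26), Gja1 (-0.38 ± 0.27), Unc5b (-0.13 ± 0.14) and Tmem100 (-0.01 ± 0.15) lay below 0. Of 9 tested venous genes, 0 were called by edgeR (2 at an unadjusted p under 0.05, both higher), 7 lay above 0 and the median was 0.22. Lrg1 came nearest to the threshold (0.45 ± 0.11, edgeR adjusted p = 0.0538), followed by Vwf, the clotting factor carrier of endothelium (0.38 ± 0.13, edgeR adjusted p = 0.130), and the venous transcription factor Nr2f2 had 0.26 ± 0.13 (edgeR adjusted p = 0.241). Among VEGF and TGF-beta family genes, Vegfa, which acts upstream of Dll4, had 0.06 ± 0.10 and its receptor Kdr 0.17 ± 0.09 (edgeR adjusted p = 0.758 and 0.247), and 2 of 16 were called, Eng and Tek. The mural connexin Gjc1 had 0.42 ± 0.14 (edgeR adjusted p = 0.119).

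**Figure D5:**
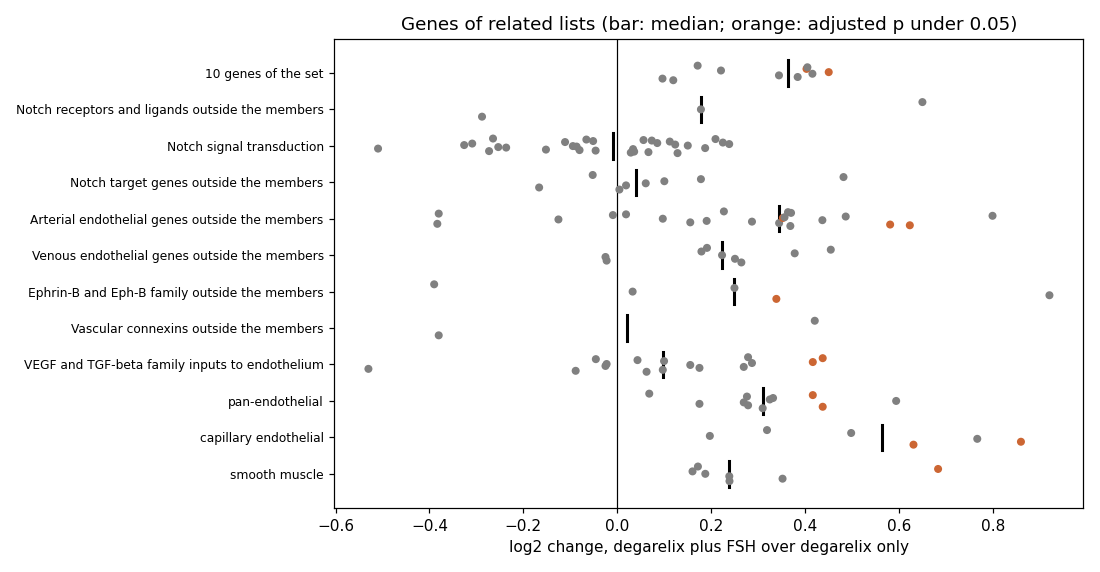
Log2 change with FSH (horizontal axis) of each tested gene (point) in the set of 10 and in related lists, with the list median as a black bar and genes past an adjusted p of 0.05 in orange (the point of Ephb4 is partly covered by that of Gja4). The medians are 0.36 for the 10 genes, 0.34 for other arterial genes, 0.31 for pan-endothelial markers, 0.56 for capillary markers and -0.01 for Notch signal transduction.

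Genes with a like pattern were sought among 12157 genes of at least 1 CPM on average, by the Pearson r of log2 CPM centred within group over the 11 rats. Gja4 was closest to Abcc9 (r = 0.942) and Kcnj8 (r = 0.941), which encode the subunits of the potassium channel of pericytes and smooth muscle. Hey1 was closest to the sterol isomerase gene Ebp (r = 0.929) and to Casp9 (r = 0.894). Ephb4 was closest to Trib2 (r = 0.945) and Trim47 (r = 0.922). Notch4 was closest to Fbxo34 (r = 0.967) and to the thromboxane receptor gene Tbxa2r (r = 0.955), and Notch1 to Sertad3 (r = 0.942). Jag2 was closest to Mxd4 (r = 0.962), Jag1 to Dyrk2 (r = 0.945) and Dll4 to Baz2a (r = 0.942). Efnb2 was closest to the homeobox gene Hlx (r = 0.952) and Gja5 to Zfp637 (r = 0.944). With 11 rats and this many genes, correlations of this size are a description of these libraries only.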

How the data were processed

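RNA from 11 rats was sequenced as stranded paired-end mRNA libraries, per the labels' protocols. The authors deposited raw read counts, whole numbers for each Ensembl gene and rat. The tools named per the submitters' processing notes are STAR, DESeq2 and edgeR, and the build is rn6, without their roles. How reads were counted, on which annotation and with which strand setting, is not given in the sources used here, so overlapping, antisense or near-identical genes are uncertain. The row with a non-numeric cell (Pcmt1) was left out.

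Columns and groups came from the labels. Groups were compared with edgeR 4.0.16 in R 4.3.3 (filterByExpr, TMM, robust quasi-likelihood test, Benjamini-Hochberg over 12846 genes, threshold 0.05). The 10 members all passed the filter. No p was adjusted over the members alone. CPM are relative to TMM-scaled totals, SD is between rats, and SE is derived from the quasi-likelihood test. Counting limits allow up to 0.127 to 0.228 CPM at a count of 0 (3 counts, counting error only). Single values were compared by exact permutation over 462 splits, which allow no p below 0.00216. Correlations used 100000 permutations.

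The members, the 8 gene lists and the 16 marker lists were chosen with earlier results of these data known. The rule for named genes was all members, the called genes of each gene list or otherwise its 2 of smallest p, and the 3 genes of closest pattern per member, of which the text gives 1 or 2. Hes1, Hey2, Heyl, Nrarp, Nr2f2, Vegfa, Kdr and the arterial genes below 0 were singled out after their values were seen, as were the promoters shown, the motifs searched and the tests of marker sums other than the pan-endothelial one. Alternatives were other scalings and filters, DESeq2 1.42.0, limma-voom (limma 3.58.1), edgeR without robust estimation, a replicate block, a pan-endothelial covariate, a threshold of 0.10 and each library left out. Pecam1 had no row under that symbol, so the planned denominator of 3 endothelial genes held Cdh5 and Tie1. The edgeR step was tested on simulated data of this comparison (12755 genes tested) where each fold size had 50 changed genes. It found 9 of those changed 1.3-fold, 28 of those changed 1.5-fold, 40 of those doubled and 48 of those tripled. Of its 132 calls, 7 were false.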

Additional observations from a re-analysis of the deposited data

Results flagged for a closer look

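Notch1 in FSH replicate 4, at 106.8 CPM, lay apart from the other 4 FSH rats, which held 126 to 134 CPM. Its gap to the nearest rat was 0.713 of the group's range, just over the limit of 0.71 for 5 samples. It was the 1 such value among 22 groups of values tested, and chance alone gives about 1 in 20.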

How the results depend on the processing

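All 10 members lay above 0 in 21 of 22 alternative fits, the exception being the pan-endothelial covariate, where Dll4 (-0.057), Jag1 (-0.14), Efnb2 (-0.043) and Gja5 (-0.087) turned below 0. The number of members called, 2 as reported, was 4 with unscaled library totals, 0 with no low-count filter, 5 with DESeq2, 5 at a threshold of 0.10, 0 with the covariate, and 0 to 2 with 1 library left out. The number of genes called, 292 as reported, was 1103 with DESeq2, 635 with voom quality weights, 962 at a threshold of 0.10, 0 with the covariate (1568 at an unadjusted p under 0.05), and 30 to 553 with 1 library left out. The cause was not tested. With the replicate number as a block, 14 genes and 0 members were called (2331 genes and 6 members at an unadjusted p under 0.05). Samples of the same number did not deviate together in every pair (correlations from -0.11 to 0.13), none of the 5 FSH rats correlated best with its own number, and the labels do not pair the rats. The summed pan-endothelial level stayed 1.19 to 1.32 times as high with FSH without any 1 library. With 1 library left out, the log2 ratio to these markers ran from -0.0021 to 0.121 for Jag2, -0.033 to 0.072 for Notch1 and -0.026 to 0.213 for Gja4, so their sign was not fixed. With only Cdh5 and Tie1 in the denominator, the difference of Dll4 was -0.17 and no longer passed. Hey1, at 127 to 213 reads, is the member most limited by depth.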

Other observations

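Ratios between members within a rat are free of library scaling and are given as values, with no test, since the pairs were chosen after their values were seen and are not corrected for gene length. The log2 ratio of Efnb2 to Ephb4 was -1.73 ± 0.28 without FSH (SD, n = 6) and -1.92 ± 0.23 with FSH (SD, n = 5), with overlapping ranges. That of Jag2 to Jag1 was -0.47 ± 0.17 and -0.19 ± 0.10, and that of Hey1 to Dll4 was -3.46 ± 0.14 and -3.12 ± 0.14, with all 5 FSH rats above the 6 degarelix only rats for Hey1 to Dll4. That of Notch4 to Notch1 was 0.50 ± 0.12 and 0.57 ± 0.22, with overlapping ranges.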
